A study of Homo sapiens with 4 samples.

Results

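The AP-1 family genes examined here are JUN, JUNB, JUND, FOS, FOSB, FOSL1, FOSL2, ATF3, BATF3 and MAFF, 10 of 19970 protein-coding genes, and they were chosen by name. Chromatin accessibility around them was measured by ATAC-seq, in which the Tn5 transposase inserts sequencing adapters into open chromatin, in SK-N-BE(2)C, an established MYCN-amplified neuroblastoma cell line. The control group (2 samples, genotype wildtype) had received a non-targeting gRNA, and the sgSNHG1 group (2 samples, genotype SNHG1 knockout) had received Cas9 with a pair of guide RNAs against SNHG1, a long non-coding RNA gene whose introns encode small nucleolar RNAs. The paper states that SNHG1 was not knocked out completely and that its expression was significantly reduced. Clones were grown from single sorted cells, and the sources used here do not say which clones went into the ATAC-seq, so that an effect of the guides and a difference between clones cannot be told apart. The authors merged the 2 replicates of each group before calling peaks, which leaves 1 peak list per group, no spread between replicates and no test between the conditions. A peak counted as a promoter peak when it overlapped the 3 kb on either side of any transcription start site (TSS) of the gene, and all peaks within 50 kb of a gene were collected as well. The control list held 60 peaks of 47610 in these windows, of which 15 were promoter peaks of a member, and the sgSNHG1 list held 56 of 42682, of which 17 were promoter peaks of a member.

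AP-1 is a family of transcription factors that bind DNA as dimers through a basic region and a leucine zipper (bZIP). JUN proteins can pair with each other or with FOS proteins, whereas FOS proteins need a JUN partner, and the dimers bind the TPA response element (TRE), TGACTCA on either strand, or the cyclic AMP response element (CRE), TGACGTCA. Several members are immediate early genes, which growth factors and stress switch on within minutes through MAP kinases and the serum response factor. In neuroblastoma, AP-1 factors are known from the mesenchymal cell state, in contrast to the adrenergic state that SK-N-BE(2)C cells are typical of. The question addressed was how the accessibility of the genes that encode these factors compared between sgSNHG1 and control cells.

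The unit of each value is the fold enrichment that MACS2 gives at the highest point (summit) of a peak, which is the fragment pileup plus 1 over the local background of the same list plus 1. The pileup behind each fold enrichment was solved from the deposited values and gives the counting error, which is the only error available. Near the members, the pileup at the summit ran from 11 to 89 fragments with a median of 27.5 in control, and from 9 to 73 fragments with a median of 25 in sgSNHG1. Over all peaks the median was 24 fragments in control and 20 in sgSNHG1, and the smallest background was 2.20 and 1.72. Fragment counts of the 2 lists are therefore not on the same scale. A log2 ratio (sgSNHG1 over control) of 0.5 or more in size is called past the threshold below. The promoter of the target gene SNHG1 was open in both lists (5.71 in control, 6.04 in sgSNHG1), but accessibility does not measure its RNA and does not check its depletion. Promoter peaks of the adrenergic markers were found in both lists for 8 of 9 genes, the exception being TH, with no peak at all. Among the markers of other cell types, this held for 0 of 5 leukocyte, 3 of 5 fibroblast and 2 of 5 epithelial genes. Over all protein-coding genes it held for 63.7%.

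Most members had an open promoter in both lists, and no ratio stood out from its counting error. In control, 8 of the 10 members had a promoter peak, and in sgSNHG1 9 of the 10. Of all protein-coding genes, 63.7% had promoter peaks in both lists, 6.07% in control only and 1.98% in sgSNHG1 only. Of the 8 members with a peak in both lists, 5 had a lower and 3 a higher fold enrichment in sgSNHG1. The median log2 ratio was -0.08 with a range from -0.46 for JUNB to 0.47 for BATF3. The sign of that median turned with the promoter placed at the start of the gene record (0.08) and with the promoter peak nearest a start (0.07). The median over the 12714 protein-coding genes with a value in both lists was -0.07, and 60.4% of those genes were lower in sgSNHG1. A ratio of at most -0.5 was found for 7.32% of those genes and one of at least 0.5 for 2.01%, against 0 of the 8 members in either direction. A ratio beyond 1.96 counting standard errors (SE) was found for 1.99% of all genes and for 0 of the 8 members. The counting SE of the members' ratios ran from 0.23 to 0.42.

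**Figure D1:**
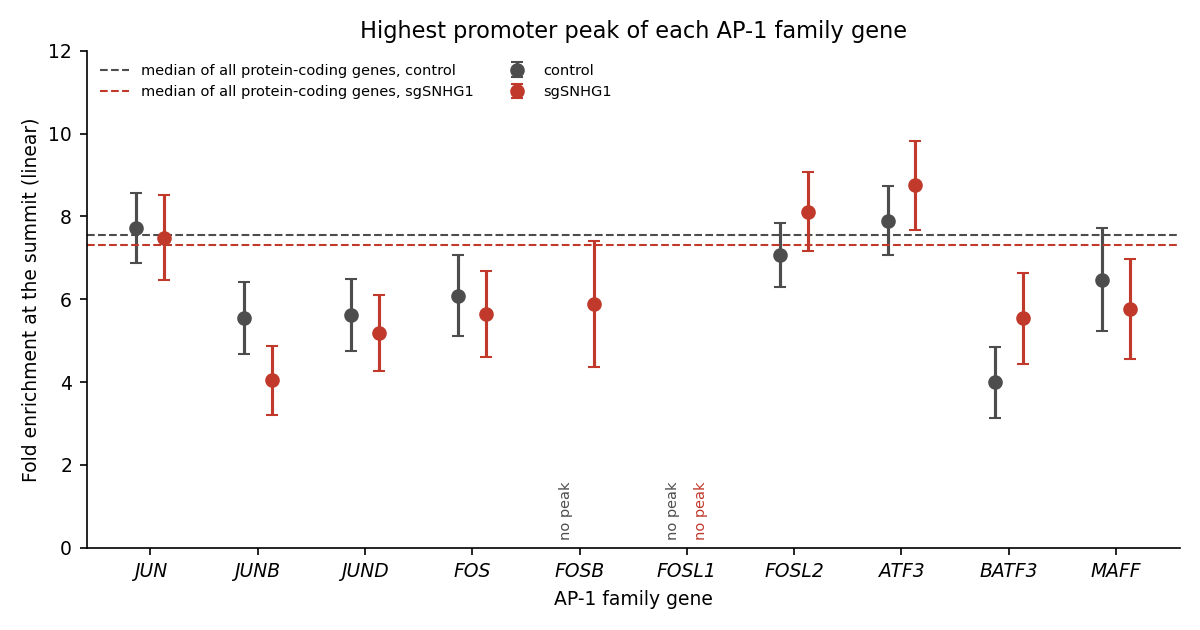
Highest promoter peak of each AP-1 family gene in the control list (grey) and in the sgSNHG1 list (red), as fold enrichment on a linear axis, with bars of 1 counting SE on either side. Dashed lines give the median over all protein-coding genes with a promoter peak in the list concerned, 7.55 in control and 7.30 in sgSNHG1. Most members sit below them.

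By fold enrichment, the order of the members was led by ATF3 in both lists. In control the fold enrichment descended from ATF3 (7.90) over JUN (7.72), FOSL2 (7.07), MAFF (6.47), FOS (6.09), JUND (5.62) and JUNB (5.55) to BATF3 (4.00). None of the 7 steps between neighbours in this order exceeded 1.96 counting SE, and the widest of these steps was 0.47 on the log2 scale, between JUNB and BATF3. In sgSNHG1 the order ran from ATF3 (8.75) over FOSL2 (8.12), JUN (7.49), FOSB (5.88), MAFF (5.77), FOS (5.65), BATF3 (5.54) and JUND (5.19) to JUNB (4.04), and 0 of its 8 steps exceeded 1.96 counting SE. The ends of the order were farther apart, by 0.98 on the log2 scale (SE 0.34) in control and by 1.11 (SE 0.34) in sgSNHG1. The order depended on the measure. On the scaled pileup, the same peak of ATF3 stood at 39.0 in sgSNHG1, below FOSL2 at 42.5, and FOSB was lowest at 8.72. Quartiles of fold enrichment were taken over all protein-coding genes with a promoter peak in the list concerned, and were 5.73 and 9.67 in control. There JUNB, JUND and BATF3 lay below the lower quartile and no member above the upper one. In sgSNHG1, where the quartiles were 5.54 and 9.38, JUNB and JUND again lay below the lower quartile. BATF3 lay practically on it (5.538 against 5.541).

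JUN (ENSG00000177606.9, chromosome 1, 58776845 to 58784048, minus strand, GRCh38) encodes the founding JUN protein, which carries the transcription activation domain that JNK kinases phosphorylate. Its promoter held a single peak in each list, whose fold enrichment was 7.72 in control (83 fragments) and 7.49 in sgSNHG1 (54 fragments). The log2 ratio was -0.04 (95% counting interval -0.54 to 0.45). Both peaks had nearly the same extent, with widths of 794 and 773 bp and summits at -139 and -146 bp from the TSS (negative positions lie upstream). The pileup alone, scaled to the smallest background of each list, gave a log2 ratio of -0.26, and the local background of JUN was lower in sgSNHG1 by a similar amount on the same scale (-0.28). The sequence around the control summit is shown because it holds TGACATCA (capitals), the variant AP-1 element through which JUN is known to act on its own promoter. The window is 201 bases long and lies upstream of the JUN transcript, at chr1:58784087-58784287 (GRCh38, minus strand), where an exon of the long non-coding RNA gene ENSG00000290013 is annotated.
JUN promoter: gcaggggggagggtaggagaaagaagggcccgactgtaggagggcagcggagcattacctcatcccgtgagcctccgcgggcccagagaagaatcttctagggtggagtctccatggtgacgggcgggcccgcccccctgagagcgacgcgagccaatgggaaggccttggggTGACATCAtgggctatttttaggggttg
The element was found with its first base at position -67 from the RefSeq start, and 2.61% of 35116 RefSeq promoters (250 bases before to 50 after the start) hold TGACATCA on either strand.

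JUN had 2 other peaks within 50 kb, and both were lower in sgSNHG1. The peak at 28.6 kb downstream of the start had 8.11 in control (25 fragments) and 5.15 in sgSNHG1 (13 fragments), with a log2 ratio of -0.66 (SE 0.49). The peak at -32.4 kb, at the promoter of the non-coding gene LINC01135, had 6.82 in control and 5.07 in sgSNHG1 (-0.43, SE 0.49). Neither ratio exceeded 1.96 counting SE. The downstream peak lies in an intron of the long non-coding RNA gene ENSG00000283445 at chr1:58755326-58755689 in control. Its sequence from chr1:58755369-58755569, written along the minus strand as for JUN, is shown because it carries a TRE (capitals) in the peak with the most negative ratio among those with an AP-1 site.
JUN downstream peak: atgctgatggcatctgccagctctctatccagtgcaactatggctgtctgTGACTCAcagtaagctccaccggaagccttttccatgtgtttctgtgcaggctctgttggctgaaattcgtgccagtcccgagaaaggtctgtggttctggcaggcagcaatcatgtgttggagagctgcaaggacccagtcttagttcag

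JUNB (ENSG00000171223.6, chromosome 19, 12791486 to 12793315, plus strand) encodes a JUN protein with a weaker activation domain that is known to restrain JUN in several cell types. It had 3 promoter peaks in each list, and all 3 were lower in sgSNHG1. At the TSS (summits at -52 and -31 bp) the fold enrichment was 5.14 in control (37 fragments) and 3.94 in sgSNHG1 (24 fragments), with a log2 ratio of -0.38 (SE 0.38). Upstream (summits at -1298 and -1165 bp) it was 4.08 in control and 3.44 in sgSNHG1 (-0.24, SE 0.41). The highest peak lay beyond the 3′ end of the gene (summits at 2188 and 2185 bp), with 5.55 in control (41 fragments) and 4.04 in sgSNHG1 (24 fragments), and a log2 ratio of -0.46 (95% counting interval -1.19 to 0.27). Each interval included 0. The 3 values share a gene and a list, so that they are not 3 independent observations. Among the members that had promoter peaks in both lists, the highest promoter peak in sgSNHG1 had the lowest fold enrichment at JUNB. Its -log10 q was 6.65, against 16.6 for the highest in control.

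JUND (ENSG00000130522.6, chromosome 19, 18279694 to 18281622, minus strand) encodes the JUN protein that most resting cells contain. Its promoter peak stood at 5.62 in control (41 fragments) and 5.19 in sgSNHG1 (32 fragments), and the log2 ratio was -0.12 (95% counting interval -0.78 to 0.55). The peak was narrower in sgSNHG1, at 619 bp against 1082 bp, and its summit moved by 214 bp, from -35 to -249 bp. On the scaled pileup the ratio was 0.00. The sequence around the sgSNHG1 summit, at chr19:18281771-18281971 (GRCh38, minus strand) and upstream of all annotated exons of JUND, is shown because the shift brought a CRE (capitals) within 100 bp of the summit.
JUND promoter: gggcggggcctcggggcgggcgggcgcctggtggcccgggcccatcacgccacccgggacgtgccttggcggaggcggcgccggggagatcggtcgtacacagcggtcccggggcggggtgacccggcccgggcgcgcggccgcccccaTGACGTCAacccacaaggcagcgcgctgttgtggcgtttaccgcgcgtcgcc
The CRE starts at position -200 from the RefSeq start. It is 1 of 2 CREs found in the members' RefSeq promoters, the other being that of MAFF, and 1.85% of all RefSeq promoters hold this 8-letter element. Within 50 kb of JUND, the highest peak in control was intergenic at -46.9 kb, with 9.39 in control and 7.43 in sgSNHG1 (-0.34, SE 0.37). The peak at -13.2 kb had 3.19 in control and 4.43 in sgSNHG1 (0.48, SE 0.53). That weak intergenic peak holds a TRE in both lists, and its window at chr19:18294690-18294890, minus strand, is shown for that reason.
JUND upstream peak: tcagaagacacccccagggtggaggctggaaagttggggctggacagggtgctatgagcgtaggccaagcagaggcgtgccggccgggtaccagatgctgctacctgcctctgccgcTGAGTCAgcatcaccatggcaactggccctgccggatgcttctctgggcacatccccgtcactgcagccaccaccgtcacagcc

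FOS (ENSG00000170345.10, chromosome 14, 75278826 to 75282230, plus strand) encodes the FOS protein, which forms the classical AP-1 dimer with JUN and is the model immediate early gene of the serum response. It had 2 promoter peaks in each list. The peak next to the start (summits at -273 and -278 bp) reached 5.71 in control (36 fragments) and 5.65 in sgSNHG1 (29 fragments), with a log2 ratio of -0.02 (SE 0.36). The second peak, centred at -1643 bp in control and at -1538 bp in sgSNHG1, had 6.09 in control (39 fragments) and 3.85 in sgSNHG1 (19 fragments), with a log2 ratio of -0.66 (SE 0.40). The upstream peak was thus the higher of the pair in control and the lower in sgSNHG1, and it narrowed from 586 bp in control to 116 bp. Its ratio passed the threshold but not 1.96 counting SE. Of all 31663 pairs of peaks, 9.06% had a ratio of at most -0.5. Since the value of a gene is its highest promoter peak, the ratio for FOS (-0.11) compared different peaks in the 2 lists.

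Both FOS windows are shown, the first because it holds the serum response element, whose CArG box core (capitals) is the binding site of the serum response factor, and the second because its height differed most. Neither overlaps an annotated exon. They lie at chr14:75278453-75278653 and chr14:75277083-75277283 (GRCh38, plus strand), and in the second the capitals mark TGACATCA as read on the minus strand.
FOS promoter: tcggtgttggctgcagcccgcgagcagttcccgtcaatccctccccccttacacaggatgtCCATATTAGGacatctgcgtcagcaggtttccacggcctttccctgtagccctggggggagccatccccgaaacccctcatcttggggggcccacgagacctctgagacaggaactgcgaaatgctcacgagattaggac
FOS upstream peak: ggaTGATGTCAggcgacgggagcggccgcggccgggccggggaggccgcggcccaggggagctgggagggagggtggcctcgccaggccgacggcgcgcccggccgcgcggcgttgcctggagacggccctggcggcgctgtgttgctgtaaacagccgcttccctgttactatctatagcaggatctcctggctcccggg
The CArG box was within 100 bp of the summit in both lists. Among all peaks, 0.916% in control and 0.958% in sgSNHG1 held a CArG box at that distance, and near the members it was 3 of 60 (5.00%, 95% Wilson interval 1.72% to 13.7%) and 2 of 56 (3.57%, 0.985% to 12.1%). Farther from FOS, the peak at 14.0 kb, at the promoter of LINC01220, was the highest near any member in both lists, with 9.94 in control (55 fragments) and 11.0 in sgSNHG1 (54 fragments). The peak at -19.7 kb had 7.66 in control (43 fragments) and 10.4 in sgSNHG1 (50 fragments), with a log2 ratio of 0.45 (SE 0.30). A further peak at 30.6 kb had a ratio of 0.05 (SE 0.46), so that the flanking peaks of FOS were all higher in sgSNHG1. At its own promoter the upstream peak was lower. The peak next to the start hardly differed, and its ratio was 0.05 on the scaled pileup. Every ratio lay inside 1.96 counting SE.

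FOSB (ENSG00000125740.15, chromosome 19, 45467995 to 45475179, plus strand) encodes a FOS protein known for stable isoforms that build up in neurons. No promoter peak of FOSB was in the control list. The sgSNHG1 list held 1 at chr19:45469201-45469347, with a fold enrichment of 5.88, a pileup of 15 fragments and a -log10 q of 7.38. The peak lies in the first intron of the main FOSB transcripts, its summit 1243 bp downstream of the gene's start, and at -638 bp from the start of a shorter transcript. ERCC1 on the other strand spans the same place. A peak that is missing from a list only failed the authors' threshold (the smallest -log10 q was 2.00 in control), which is not a measurement of closed chromatin. The 15 fragments are fewer than behind the highest promoter peak of any other member in sgSNHG1. The window at chr19:45469138-45469338, plus strand, is shown as the only place where a member had a promoter peak in 1 list and none in the other, and it holds none of the elements searched.
FOSB intron peak: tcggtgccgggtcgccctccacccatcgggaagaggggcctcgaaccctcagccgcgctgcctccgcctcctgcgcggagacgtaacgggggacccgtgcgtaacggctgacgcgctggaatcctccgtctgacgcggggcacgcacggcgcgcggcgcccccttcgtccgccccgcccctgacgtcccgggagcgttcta

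FOSL1 (ENSG00000175592.9, chromosome 11, 65892049 to 65900573, minus strand), which encodes FRA1, a FOS protein linked to invasive and mesenchymal cells, had no promoter peak in either list. Of all protein-coding genes, 5648 likewise had none. The neighbourhood was gene rich, with 9 control and 8 sgSNHG1 peaks within 50 kb, all at promoters of other genes. Among them was the only pair near any member whose ratio exceeded 1.96 counting SE, against 2.94% of all pairs. It lay at the promoter of CFL1, which encodes the actin-severing protein cofilin, with 3.79 in control (46 fragments) and 5.79 in sgSNHG1 (59 fragments), and a log2 ratio of 0.61 (SE 0.28). The pair at the promoter of CCDC85B went the other way, with 5.50 in control and 3.67 in sgSNHG1 (-0.59, SE 0.34).

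FOSL2 (ENSG00000075426.12, chromosome 2, 28392448 to 28417317, plus strand) encodes FRA2, the other FOS-related antigen. Its promoter peak was among the deepest of the family, at 7.07 in control (84 fragments) and 8.12 in sgSNHG1 (73 fragments). The log2 ratio was 0.20 (95% counting interval -0.25 to 0.65), and the scaled pileup gave 0.16. The summits lay at -7 and -19 bp, and a TRE with its first base 5 bp after the RefSeq start was within 100 bp of both. FOSL2 was the only member whose RefSeq promoter held a TRE, which 4.95% of all RefSeq promoters hold. The sgSNHG1 list had 2 further weak promoter peaks at -2109 and -1882 bp, with fold enrichments of 3.06 and 2.45. Upstream of the gene, by contrast, the intergenic peak at -45.7 kb had 8.96 in control (58 fragments) and 6.56 in sgSNHG1 (34 fragments), with a log2 ratio of -0.45 (SE 0.31), and the intergenic peak at -25.5 kb was in the control list only (5.27, 29 fragments). The promoter and the upstream region of FOSL2 thus had ratios of opposite sign, neither beyond 1.96 counting SE.

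ATF3 (ENSG00000162772.18, chromosome 1, 212565334 to 212620777, plus strand) encodes a stress-induced bZIP factor that often acts as a repressor. It had the promoter with the highest fold enrichment of the family, at 7.90 in control (89 fragments) and 8.75 in sgSNHG1 (67 fragments). The log2 ratio was 0.15 (95% counting interval -0.31 to 0.60). The scaled pileup gave -0.05, so that the sign depends on the measure. The summits were 7 bp apart, at -20 and -27 bp from the start of an internal transcript, 43407 bp downstream of the start of the gene record in control. The peak was 1596 bp wide in control, and in sgSNHG1 the same stretch held a peak of 781 bp and a separate weak one of 94 bp (2.94, 22 fragments). A second promoter peak, 1.93 kb downstream of the first start, holds a TRE and had 5.95 in control and 7.11 in sgSNHG1 (0.26, SE 0.41). The stretch upstream of the internal start, cut at the first base of an annotated untranslated exon, is shown as the promoter with the highest fold enrichment of the family (chr1:212608641-212608760, GRCh38, plus strand, where an exon of another ATF3 transcript is annotated). It holds none of the elements searched.
ATF3 promoter: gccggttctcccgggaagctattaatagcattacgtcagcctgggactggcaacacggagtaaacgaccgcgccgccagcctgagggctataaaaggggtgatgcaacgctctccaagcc

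All 6 paired peaks near ATF3 had a higher fold enrichment in sgSNHG1, with a median log2 ratio of 0.28, and 0 of them exceeded 1.96 counting SE. Over all pairs of peaks, 55.6% were lower. The 6 share a locus, so that they are not independent observations, and 3 of them are also near BATF3. On the scaled pileup, 2 of the 6 were lower and the median was 0.24. The intergenic peak at 21.7 kb had 8.16 in control (75 fragments) and 10.9 in sgSNHG1 (70 fragments), and its ratio of 0.42 (SE 0.24) came closest to 1.96 counting SE among them. The peak at -6.25 kb, at the promoter of the non-coding gene ENSG00000288007, had 4.55 in control (22 fragments) and 6.77 in sgSNHG1 (28 fragments), with a ratio of 0.57 (SE 0.41). Of all pairs, 5.37% had a ratio of at least 0.5. Outside the neighbourhood, the median fold enrichment ratio over 181 pairs within 5 Mb of ATF3 was -0.09. The -6.25 kb window (chr1:212558979-212559179, plus strand, over an exon of the long non-coding RNA gene ENSG00000260805) is shown because it was the only peak near a member with a TRE and a CRE side by side (capitals, in that order).
ATF3 upstream peak: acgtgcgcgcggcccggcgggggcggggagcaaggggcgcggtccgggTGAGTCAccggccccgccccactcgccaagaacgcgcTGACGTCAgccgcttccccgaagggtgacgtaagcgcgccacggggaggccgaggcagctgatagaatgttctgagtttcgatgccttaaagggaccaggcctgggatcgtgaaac

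BATF3 (ENSG00000123685.9, chromosome 1, 212686417 to 212699840, minus strand), which encodes a short bZIP protein without an activation domain that pairs with JUN and is known from dendritic cells, had promoter peaks in both lists that did not overlap. Its control promoter had 3 weak peaks, at 396, -695 and -1528 bp, with fold enrichments of 3.58, 3.59 and 4.00. The sgSNHG1 promoter had a single peak at -516 bp from another transcript's start, with 5.54 (25 fragments). Because the starts differ, these positions hide that it lay right beside a control peak. It spans chr1:212699107-212699372, and the control peak at 396 bp spans chr1:212699409-212699599. None of the 4 peaks overlapped one of the other list, so that the log2 ratio of 0.47 (SE 0.42) compared different sites. The same ratio was 0.62 with a promoter window of 1 kb, and -1.01 when fold enrichments were summed over the promoter peaks. Within 50 kb, 5 of 8 control peaks and 2 of 5 sgSNHG1 peaks were in 1 list only, where the share over all peaks was 33.3% in control and 21.8% in sgSNHG1. The windows of BATF3 and ATF3 overlap and share 3 peaks in each list. Among the control-only peaks was an intergenic one at 15.6 kb (5.11, 36 fragments, -log10 q 13.4), which is shown (chr1:212671815-212672015, minus strand) because it holds a TRE (capitals).
BATF3 downstream peak: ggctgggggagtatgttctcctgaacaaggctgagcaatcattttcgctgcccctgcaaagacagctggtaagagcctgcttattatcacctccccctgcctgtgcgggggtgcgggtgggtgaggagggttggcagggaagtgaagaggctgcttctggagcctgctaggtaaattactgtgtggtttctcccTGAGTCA

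MAFF (ENSG00000185022.12, chromosome 22, 38200767 to 38216507, plus strand) encodes a small MAF protein, which lacks an activation domain and pairs with other bZIP factors such as NFE2L2. Its 2 promoter peaks had ratios of opposite sign. At a start near the beginning of the gene, though not its first (summits at 27 bp in both lists), the fold enrichment was 4.75 in control (23 fragments) and 5.77 in sgSNHG1 (23 fragments), with a log2 ratio of 0.28 (SE 0.43). Near the start of an internal transcript (summits at 1253 and 1243 bp) it was 6.47 in control (27 fragments) and 4.15 in sgSNHG1 (15 fragments), with a ratio of -0.64 (SE 0.46). The higher of both was therefore the internal one in control and the one near the beginning of the gene in sgSNHG1. The ratio of the maxima (-0.17, SE 0.41) thus compared different sites. The peak near the beginning of the gene holds a CRE at -54 bp from the RefSeq start. At -18.8 kb, a promoter of PLA2G6 had the second highest control value near a member, with 9.64 in control and 9.23 in sgSNHG1. Another PLA2G6 promoter at -36.6 kb had 5.67 in control (26 fragments) and 3.80 in sgSNHG1 (13 fragments), with a ratio of -0.58 (SE 0.49).

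**Figure D2:**
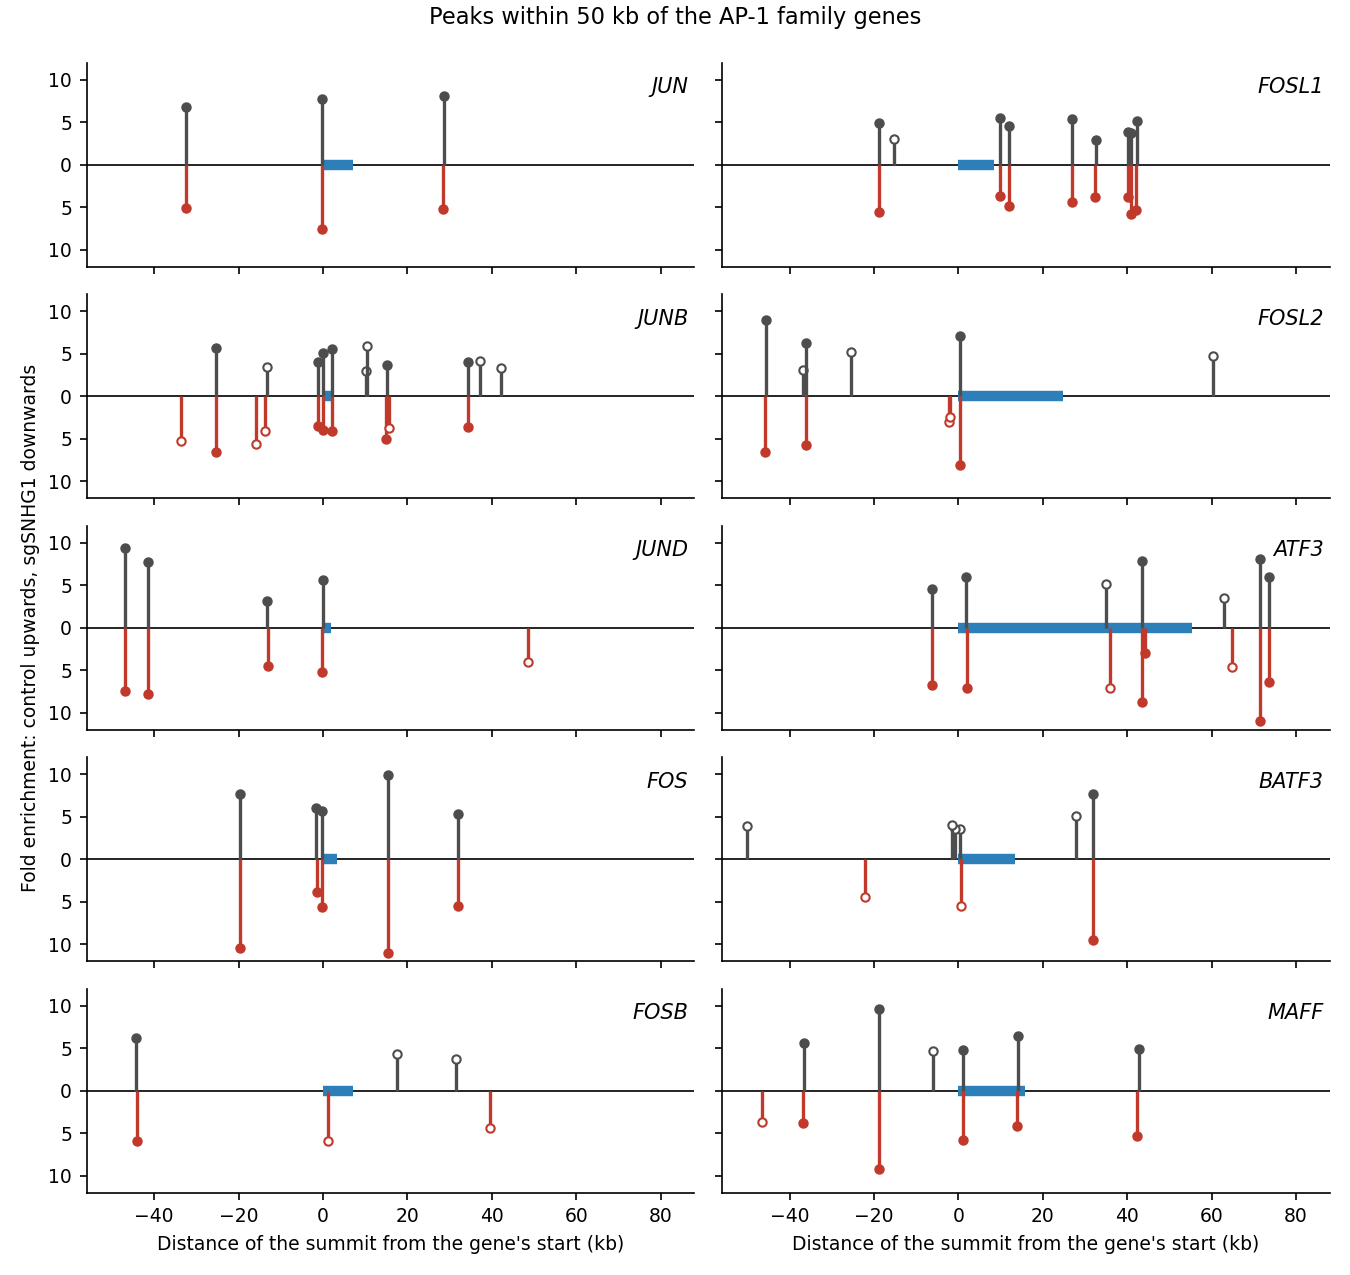
Summits of all peaks within 50 kb of each AP-1 family gene, by their distance in kb from the start of the gene record along its strand, with fold enrichment drawn upwards for control (grey) and downwards for sgSNHG1 (red). Blue bars are the genes, filled points are peaks that overlap a peak of the other list and open points are peaks of 1 list only, and peaks near both ATF3 and BATF3 are drawn once. JUN and FOS have filled points only, whereas the promoter of BATF3 has open points only.

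Most peaks in the windows of 50 kb were found in both lists. Of the 60 control peaks, 41 overlapped an sgSNHG1 peak by at least 1 bp (68.3%, 95% Wilson interval 55.8% to 78.7%), against 66.7% of all control peaks. Of the 56 sgSNHG1 peaks, 42 overlapped a control peak (75%, 62.3% to 84.5%), against 78.2% of all sgSNHG1 peaks. Both intervals include the share over all peaks, and they cover counting error only. Peaks within 3 kb of any start were shared more often across the genome, and most peaks near the members were of that class. Among those, 33 of 47 control peaks were shared (70.2%, 56% to 81%), against 75.8% of all such peaks. In sgSNHG1 it was 34 of 44 (77.3%, 63.0% to 87.2%), against 87.5%, which lies just above that interval. The number of peaks near the members in sgSNHG1 was 0.933 of that in control, and over the genome it was 0.896. All peaks of JUN and FOS were shared in both lists, while FOSB shared 1 of 3 in each list. The highest peak found in control only was at 10.4 kb from JUNB, at the promoter of THSD8 (5.91, 27 fragments). It was followed by the FOSL2 peak at -25.5 kb named above, an intron peak of ATF3 at -8.44 kb (5.19, 23 fragments), the BATF3 peak with the TRE and a peak 35.1 kb past the end of FOSL2, at 57.2 kb from its nearest transcript start (4.80, 26 fragments). The highest peak found in sgSNHG1 only outside the members' promoters was another intron peak of ATF3, at -7.35 kb (7.02, 31 fragments). The next were at the promoters of HOOK2 (5.59, 25 fragments) and BEST2 (5.22, 17 fragments) near JUNB, at 15.0 kb from ATF3 (4.60, 17 fragments) and at the promoter of VASP near FOSB (4.41, 11 fragments). The intron of ATF3 thus held a peak in each list at places that did not overlap.

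Most of these peaks were not at the members' own promoters. In control, 32 of the 60 lay at the promoter of another gene, 15 at the member's own promoter, 10 in intergenic sequence and 3 in introns, and in sgSNHG1 the numbers were 27, 17, 9 and 3 of 56. Matching each peak with its best mutual overlap gave 41 pairs, of which 21 were lower and 20 higher in sgSNHG1, with a median log2 ratio of 0.00. Over all 31663 pairs the median was -0.05, and 55.6% were lower. The 12 pairs at the members' own promoters had a median of -0.08 with 8 lower, the 21 pairs at other genes' promoters 0.08 with 9 lower, and the 8 pairs farther from any start -0.03 with 4 lower. Past the threshold were 5 pairs with lower and 2 with higher fold enrichment in sgSNHG1 (12.2% and 4.88% of the 41), where 9.06% of all pairs had a ratio of at most -0.5 and 5.37% one of at least 0.5. The 5 lower ones lay near JUN, FOS, FOSL1 and MAFF, the last with 2 of them, and the 2 higher ones near FOSL1 and ATF3.

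**Figure D3:**
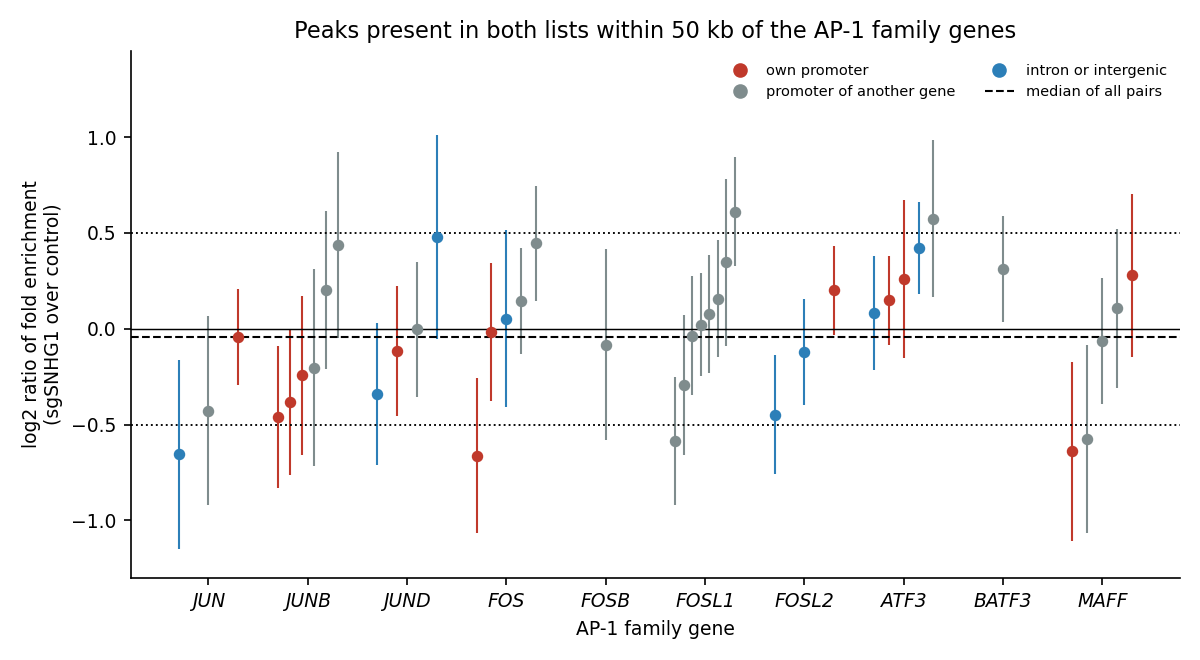
Ratios (log2, sgSNHG1 over control) of the fold enrichment of the 41 peak pairs near the AP-1 family genes, with bars of 1 counting SE on either side, coloured by where the control peak lies. The dashed line is the median of all pairs (-0.05) and dotted lines mark a ratio of 0.5 in size. The 3 own-promoter pairs of JUNB all lie below 0 and all pairs drawn at ATF3 lie above it. Pairs near both ATF3 and BATF3 are drawn once, at the gene with the nearer start.

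Peaks near the members were narrower in sgSNHG1, as peaks were across the genome. Of the 41 pairs, 36 were narrower, with a median log2 ratio of widths of -0.50, and of all pairs 79.8% were narrower, with a median of -0.42. The bases covered by peaks near the members in sgSNHG1 were 0.661 of those in control (median width 211 bp against 329 bp), and over the genome the ratio was 0.670. The narrowest control peak was 119 bp and the narrowest sgSNHG1 peak 92 bp, so that the smallest width called also differed between the lists. The median pileup and the smallest background over all peaks were lower in sgSNHG1 as well. The part of either difference in these widths and peak numbers was not tested. Within 5 Mb of each member, leaving out the windows of 50 kb, the median log2 ratio of fold enrichment ran from -0.10 near FOSL1 to 0.04 near JUNB, over 108 to 301 pairs. On the scaled pileup these medians ran from -0.04 near ATF3 to 0.23 near JUNB. On the scaled pileup, the highest promoter peak of JUNB had a ratio of -0.41, whereas the median was 0.23 within 5 Mb. The median over all pairs of chromosome 19 was 0.16 on that scale, so that the higher values were not particular to the stretch around JUNB.

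AP-1 sites were found in peaks within 50 kb of the members. In control, those at a member's own promoter lay at ATF3, FOSL2 and MAFF, and the rest lay elsewhere in the windows. A TRE or a CRE lay within 100 bp of the summit in 8 of the 60 control peaks (13.3%, 95% Wilson interval 6.91% to 24.2%) and in 5.58% of all control peaks. In sgSNHG1 the numbers were 7 of 56 (12.5%, 6.19% to 23.6%) and 6.62%. Of the control peaks within 3 kb of any start, 5 of 47 had a site (10.6%, 4.63% to 22.6%), against 4.74% of all such peaks, and of those farther away 3 of 13 (23.1%, 8.18% to 50.3%), against 6.29%. The peaks near the members were richer in G and C than peaks elsewhere, with a median of 65.2% against 55.7% in control, and the part of this in the counts was not tested. Paired peaks with a site in either list numbered 7, of which 5 were higher in sgSNHG1 and 2 lower, with a median log2 ratio of 0.26 and 0 beyond 1.96 counting SE. The lower ones were the promoter of JUND and the downstream peak of JUN. Over all 31663 pairs, with or without a site, 55.6% were lower and the median was -0.05. The share among all pairs with a site is not given here, so that these few pairs have no matched background. The 2 control peaks with a site and no partner lay near BATF3 and, at -15.4 kb, near FOSL1, and the sgSNHG1 list had 0 such peaks.

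The members' promoters in the RefSeq table (GRCh38.p14) were matched for 8 genes, and FOSL1 and BATF3 were not matched. Of the 8, 1 held a TRE, 2 held a CRE, 2 held TGACATCA and 0 held a CArG box, which 1.29% of all RefSeq promoters hold. The serum response element of FOS shown above lies just upstream of that window. The second TGACATCA was in the promoter at the first start of ATF3, at position -123, where neither list had a summit within 100 bp.

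Genes that work with AP-1 were compared in the same way, from 4 lists written from general knowledge. Of all protein-coding genes, 63.7% had promoter peaks in both lists and 6.07% in control only. The other bZIP partners, such as the CREB, ATF and MAF proteins, had promoter peaks in both lists for 11 of 15 genes, and a median log2 ratio of 0.04 and 0 past the threshold. The highest of them in control was ATF7 (11.2 in control, 12.1 in sgSNHG1), and MAF, a large MAF protein, had a peak in control only (3.22, 10 fragments). The kinases and serum response factors upstream of AP-1 had peaks in both lists for 21 of 22 genes, with a median of -0.04 and 0 past the threshold. Their highest control promoter was that of MAPK10, which encodes the neuronal JNK3, with 11.75 in control (104 fragments) and 8.79 in sgSNHG1 (28 fragments). Its ratio was -0.42 by fold enrichment and -1.53 by scaled pileup, and MAPK10 lies on chromosome 4, which carries none of the members.

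The other immediate early genes had peaks in both lists for 19 of 22 genes, with a median of -0.10. DUSP1, a phosphatase that turns MAP kinases off, was past the threshold with 6.71 in control (50 fragments) and 4.60 in sgSNHG1 (25 fragments), a ratio of -0.55 (SE 0.35). EGR3, a zinc finger factor, was past it in the other direction with 4.88 in control and 6.97 in sgSNHG1 (0.51, SE 0.30). KLF2 (4.78, 16 fragments) and ZFP36 (3.71, 12 fragments) had promoter peaks in control only. IER5 and EGR2 had the highest control values, at 10.4 each. Genes known as AP-1 targets had peaks in both lists for 10 of 20 genes and in neither for 8, beside 63.7% and 28.3% over all protein-coding genes. Their median log2 ratio was 0.08, with 0 past the threshold, MMP3 in control only (3.40, 12 fragments) and THBS1 in sgSNHG1 only (5.34, 15 fragments). TIMP1, an inhibitor of matrix proteases, had the highest control value among them (10.7 in control, 9.16 in sgSNHG1). On the scaled pileup the medians of the 4 lists were 0.01, 0.12, -0.04 and 0.21 in the order given, beside -0.04 over all protein-coding genes. Past 0.5 in size on that scale were 0 of the 11 bZIP partners, 6 of the 21 kinases and serum response factors (3 lower, with MAPK10 among them, and 3 higher), 3 of the 19 other immediate early genes (2 lower, with DUSP1 among them, and 1 higher) and 2 of the 10 targets, both higher. EGR3 was not past it on that scale, at 0.49. Of all protein-coding genes, 10% had a scaled pileup ratio of at most -0.5 and 6.37% one of at least 0.5, and of the 8 AP-1 members 1 was past it, BATF3 at 0.54.

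**Figure D4:**
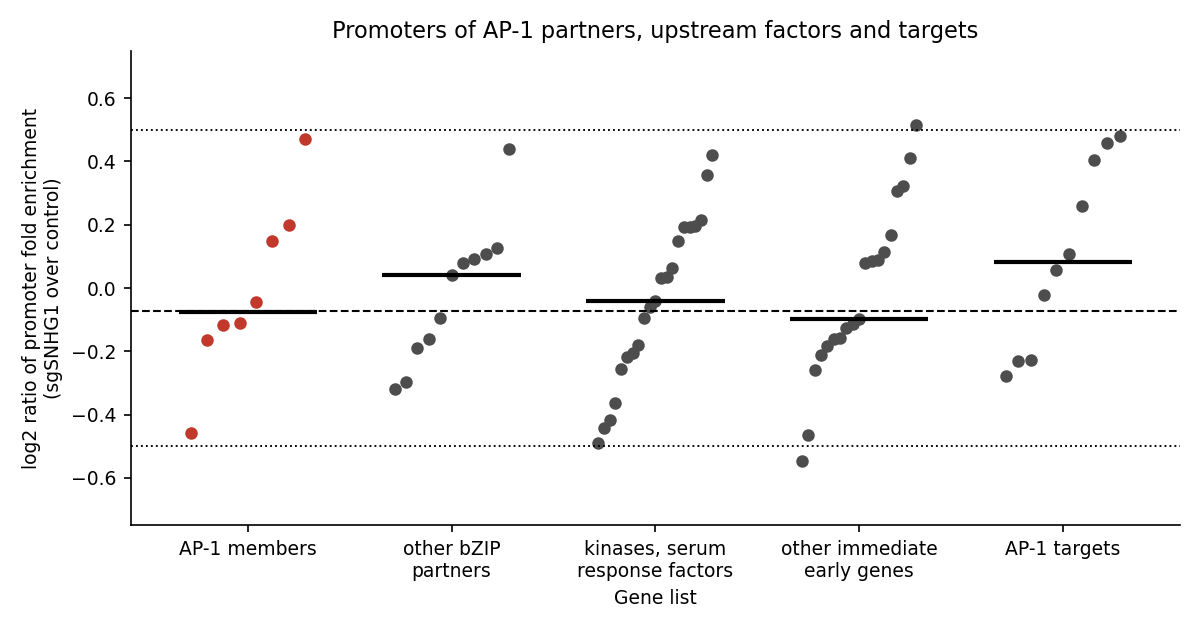
Ratios (log2, sgSNHG1 over control) of promoter fold enrichment for each gene that has promoter peaks in the 2 lists, for the AP-1 members (red) and 4 lists of related genes (grey). Thick bars are list medians, the dashed line is the median of all protein-coding genes (-0.07) and dotted lines mark 0.5 in size. DUSP1 and EGR3, both among the other immediate early genes, are the only points outside the dotted lines.

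Genes with promoter values most like those of the members were sought for JUN and FOS, by the Euclidean distance over the log2 fold enrichments of the 2 lists among 12713 genes. For JUN they were ZBTB18 (7.73 in control, 7.52 in sgSNHG1), BANP (7.75, 7.50) and ZHX1 (7.67, 7.48). For FOS they included CFAP410 (6.06, 5.66) and ZNF704 (6.09, 5.69). With only 2 values per gene, such likeness rests on height alone.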

How the data were processed

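ATAC-seq was performed on 2 control and 2 sgSNHG1 samples of SK-N-BE(2)C cells. Adapter trimming (cutadapt), alignment to GRCh38 (BWA), removal of duplicates (Picard) and the shift of read ends for the Tn5 cut (deepTools) were done by the authors, who then merged the replicates of a group and called peaks with MACS2 in paired-end mode. The tool versions and the threshold are not given in the sources used here. Merging conceals peaks present in a single replicate, and no input library is described.

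Both deposited files are peak lists. Fold enrichment, a ratio in the deposited files, divides the summit pileup by the local background of the same list, with a pseudocount of 1 in each. Each deposited peak has a -log10 p-value and a -log10 q-value, which MACS2 derives from Poisson statistics. The summit offset deposited by the authors gives each summit, and their score was not used. Fold enrichment depends on the background of its own list, so that the scaled pileup was computed as well.

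The pileup and background at each summit were solved from these deposited values, within 0.001 for 47609 of 47610 control and 42682 of 42682 sgSNHG1 peaks. The procedure was tested on 5000 simulated peaks and returned 100% of the pileups. The scaled pileup is the pileup over the smallest background of its list (2.20 in control, 1.72 in sgSNHG1). The standard error of a log2 ratio follows from Poisson counting of both pileups and covers counting error only. Genes came from GENCODE version 44. The value of a gene is its highest promoter peak, and pairs are mutual best overlaps of at least 1 bp. No test between conditions was possible.

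The members and the lists (other bZIP partners, kinases and serum response factors, other immediate early genes, AP-1 targets, cell type markers) were chosen with earlier results of these data known. Named were all members, the genes of each list past 0.5 in size or in 1 list only, the highest control gene of each list, and near the members the 5 pairs with the highest control value, the 5 with the largest ratio in size and the 5 strongest single-list peaks of each list. The 3 genes nearest to JUN and to FOS in promoter values were sought as well, and 1 item is not reported here. Other peaks named near JUN, JUND and FOS were chosen after their values were seen. Elements were searched on both strands within 100 bp of summits: the TRE (TGACTCA), the CRE (TGACGTCA), TGACATCA and the CArG box, which cannot start at the same base on the same strand. Alternatives changed the measure, the promoter window (1 kb), the TSS set, the peak taken, the window around genes (20 and 100 kb), the -log10 q (5 and 10), the overlap (50%) and the motif window (50 bp or the whole peak). Python 3.11.15, numpy 2.4.6, pandas 2.3.3, scipy 1.17.1, pysam 0.24.0 and matplotlib 3.10.9 were used.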

Additional observations from a re-analysis of the deposited data

How the results depend on the processing

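No paired analysis was possible because the replicates of each group were merged before peak calling, and for the same reason no replicate could be left out. Of the 55 recomputed summary values, 42 stayed within the spread over genes, the counting interval or 1.5 times of the main value and 13 moved. Medians near 0 did not hold their sign. That of the AP-1 members turned from -0.08 to 0.08 with the TSS of the gene record and 0.07 with the promoter peak nearest a TSS. That of the paired peaks near them turned from -0.00 to 0.05 with the scaled pileup, 0.08 within 20 kb and 0.08 where both peaks had a -log10 q of 10 or more. The upstream kinases turned from -0.04 to 0.12 with the scaled pileup and the other immediate early genes from -0.10 to 0.08 with a promoter window of 1 kb. The number of members past 0.5 in size, 0 by fold enrichment at the highest promoter peak, was 1 with the scaled pileup, 1 with a promoter window of 1 kb, 1 with the promoter peak nearest a TSS and 2 with the sum over promoter peaks. BATF3 was past it in each of these settings, at 0.54, 0.62, 0.63 and -1.01, and FOSL2 was the second at 0.95 with the sum. The number of peaks near the members changed with the window and the threshold by construction, from 60 in control to 34 at a -log10 q of at least 10, 37 within 20 kb and 91 within 100 kb, and from 56 in sgSNHG1 to 26 and 35 for the first and second of these. The share of control peaks that overlapped an sgSNHG1 peak moved from 68.3% to 46.7% (48.2% of all control peaks) when 50% of both peaks had to overlap and to 80.9% (77.1%) at a -log10 q of at least 5, and that of sgSNHG1 peaks from 75% to 50% (53.8%) and 85.7% (87.4%). Of the members' own ratios, JUND, ATF3 and MAFF changed sign with the scaled pileup, to 0.00, -0.05 and 0.13, each within 1 counting SE of the main value, and MAFF also with the TSS of the gene record (0.28). The depth limits single ratios to differences of about 2 counting SE, and the spread between replicates is unknown.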
